A study of Mus musculus with 12 samples.

Results

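The guanylate-binding proteins of the mouse are a family of large GTPases, and 9 of their genes, Gbp2 to Gbp10, were followed here by symbol through every library of the series. All 9 were among the 23479 genes listed in each count table, and all 9 were among the 10981 genes that passed the filter on low counts. The RNA came from CD4+ T cells enriched from mouse spleen, on a C57BL/6 background throughout. The 12 libraries formed 4 groups of 3: Sirt2-/- cells after 24 h on a surface coated with an antibody to CD3, part of the T cell receptor complex (KO 24 h); wild-type cells treated likewise (WT 24 h); Sirt2-/- cells taken without culture (KO 0 h); and wild-type cells taken without culture (WT 0 h). The antibody, clone 145-2C11, was used at 5 µg/ml. Sirt2 is the gene of a deacetylase that uses NAD, and the labels name no Cre or cell type for its deletion. They give no ages and leave unsaid whether replicates were separate mice, so the p-values cover the variation among these libraries, part of which may be technical. No unstimulated culture was among the libraries, so the antibody and 24 h of culture cannot be told apart.

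Guanylate-binding proteins are made in response to interferons, above all interferon gamma, the cytokine that T helper 1 cells release. Interferon gamma binds a receptor of the chains Ifngr1 and Ifngr2, which signals through the Janus kinases Jak1 and Jak2 to gamma-activated sites (GAS) in DNA. The response also switches on Irf1, which, like other interferon regulatory factors, binds interferon-stimulated response elements (ISRE). The proteins assemble on the membranes of vacuoles that hold parasites or bacteria, together with the immunity-related GTPases, and help the cell to destroy them, a role studied mostly in macrophages. In the mouse the genes lie in a pair of clusters. In the order of the RefSeq table of assembly GRCm38.p6, chromosome 3 carries Gbp5, Gbp7, Gbp3, Gbp2b and Gbp2, and chromosome 5 carries Gbp8, Gbp9, Gbp4, Gbp10, Gbp6 and Gbp11, the last of which RefSeq calls a transcribed pseudogene.

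The copies resemble each other, which bears on how reads were counted, because 25.7% to 30.9% of all reads listed for a library stood in the entry for reads aligned to several places and were given to no gene. The share was lower at 24 h, between 25.7% and 27.7%, than at 0 h, between 28.7% and 30.9%. In GENCODE M21 transcripts, the coding sequences of Gbp6 and Gbp10 were identical at 1803 of 1833 bases, or 98.4%. Of the windows of 50 bases along the longest coding transcript of each gene, 70.3% in Gbp6 and 73.9% in Gbp10 also occurred in another Gbp gene. That share was 21.2% in Gbp8, 12.8% in Gbp4 and 9.56% in Gbp9, and on chromosome 3 it was 4.79% in Gbp3, 2.28% in Gbp7, 2.07% in Gbp2 and 0% in Gbp5. Along these transcripts only a minority of the windows of Gbp6 and Gbp10 occurred in no other Gbp gene, so their counts are uncertain. The transcripts used have 2604 bases in Gbp6 and 3528 in Gbp10. All annotated exons together cover 5954 bases in Gbp6 and 3873 in Gbp10, and those outside the transcripts used were not searched. The stretch from coding base 1528 to coding base 1647 was chosen among windows of its length for the most differences, and is no typical sample. It shows where reads can be told apart, with the 12 bases that differ between the copies in capitals.
Gbp6: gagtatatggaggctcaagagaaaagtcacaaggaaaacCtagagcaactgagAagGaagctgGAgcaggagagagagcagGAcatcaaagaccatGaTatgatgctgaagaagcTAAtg
Gbp10: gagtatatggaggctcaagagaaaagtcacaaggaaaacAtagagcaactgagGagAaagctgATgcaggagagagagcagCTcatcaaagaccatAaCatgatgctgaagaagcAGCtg
Exons of Gbp4, Gbp8 and Gbp9 overlapped each other by 60 or 61 bases in that annotation. The gene model Gm43302 covered 29% of the exon bases of Gbp6 and 46.3% of those of Gbp10, and the strand setting of the counting is not given in the sources used here.

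RefSeq windows upstream of the start (build GRCm38.p6) matched 4 members by symbol, all on chromosome 3: Gbp5, Gbp7, Gbp3 and Gbp2. The 250 bases before each start were searched on both strands for 3 motifs: GAS as TTCNNNGAA, the core of the ISRE as a pair of GAAA with 2 bases of any kind between them, and the AP-1 site as TGANTCA. The letters of the ISRE core were found in a window of each of the 4 genes, in each case on the opposite strand, so that a pair of TTTC is read below. In 32851 windows of the same length, 2.98% held them. The stretches that hold them are given with the matched bases in capitals, all on the plus strand; in Gbp3, whose second window upstream of another start held no motif, the capitals cover a pair of overlapping matches.
Gbp5, chr3:142496759-142496788: acttgtgtagTTTCAATTTCagtttagaga
Gbp7, chr3:142530273-142530302: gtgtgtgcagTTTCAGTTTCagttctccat
Gbp3, chr3:142559992-142560021: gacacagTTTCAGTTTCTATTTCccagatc
Gbp2, chr3:142620594-142620623: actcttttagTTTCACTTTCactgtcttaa
The first matched base lay 165 bases before the start in Gbp5, 53 in Gbp7, 45 in Gbp3 and 59 in Gbp2. The GAS letters were found in Gbp5 and Gbp7, at 2 places each, and in 7.02% of the 32851 windows. The stretches with those places follow.
Gbp5, chr3:142496684-142496707: gcaacTTCTGGGAAattagttcag
Gbp5, chr3:142496872-142496900: tggccgttatTTCTCAGAAccaagcacag
Gbp7, chr3:142530220-142530248: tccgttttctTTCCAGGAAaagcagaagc
Gbp7, chr3:142530239-142530267: aagcagaagcTTCTCAGAAagtcagcaca
The AP-1 letters were found once, in Gbp2, and in 6.75% of all windows. A match describes letters in a window and is no measurement of binding.

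Library depth and cell makeup touch each comparison that follows. Reads in genes were 4.61 ± 0.881 megareads in KO 24 h, 6.56 ± 1.71 megareads in WT 24 h, 7.46 ± 2.26 megareads in KO 0 h and 7.60 ± 1.18 megareads in WT 0 h (SD, n = 3 each). Levels are given as CPM, read counts scaled to library size, and are shares of a library. Sirt2 itself reached 13.2 ± 5.60 CPM in the KO 24 h group, against 67.2 ± 7.92 CPM in the WT 24 h group, and 12.4 ± 3.59 CPM in the KO 0 h group, against 74.6 ± 9.42 CPM in the WT 0 h group. CPM also depend on the cells present, and in bulk samples fewer cells of a type and less RNA per cell cannot be told apart. The summed level of 8 T cell markers in CPM ran between 2924 and 3311 for KO 24 h, 3072 and 3295 for WT 24 h, 6410 and 7272 for KO 0 h, and 6189 and 6596 for WT 0 h. The macrophage markers, of which 9 of 10 were listed, summed to between 10.7 and 15 CPM for KO 24 h, 11.2 and 16.2 for WT 24 h, 15.2 and 16.0 for KO 0 h, and 15.8 and 16.5 for WT 0 h. Of their defining genes, Fcgr1 had no read in any library, and Cd14, C1qa and C1qb each had none in 3 of the 4 groups. Members of that list that were detected moved apart over 24 h: Mpeg1 rose in KO cells (log2 2.29, edgeR BH-adjusted p = 0.00189) and stood at 0.14 in WT cells, Itgam fell, at -2.86 in KO and -2.43 in WT cells, and Cd68 averaged between 6.4 and 7.81 CPM in the 4 groups. The 7 B cell markers summed to between 3.11 and 7.96 CPM for KO 24 h and 4.13 and 6.63 for WT 24 h, against 19.5 and 30.7 for KO 0 h and 22.3 and 32.1 for WT 0 h. The summed level of the 4 NK cell markers was between 60.7 and 68.5 CPM for KO 24 h and 47.4 and 69.6 for WT 24 h, against 54.2 and 64.4 for KO 0 h and 45.2 and 54.9 for WT 0 h, but its members did not move together. Klrb1c fell over 24 h, at a log2 of -5.01 in KO and -4.597 in WT cells, and Klrd1 fell by 1.99 in KO and 1.16 in WT cells, whereas Eomes rose by 1.35 in KO and 1.14 in WT cells. The CD8 T cell marker Cd8b1 fell by 1.41 in KO and 0.93 in WT cells. The ribosomal RNA gene Rn45s took 7.95% to 9.55% of the reads in genes at 24 h and 12.5% to 17.5% at 0 h. The part of these markers and library properties in the changes over time was not tested; with Rn45s left out, all 9 Gbp genes still passed as higher at 24 h in both genotypes.

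All 9 Gbp genes were higher after 24 h on anti-CD3 than at 0 h, in KO and in WT cells alike. Gbp2 rose most, about 30-fold, followed by Gbp10 and Gbp5, while Gbp9 rose least. The 9 genes together took 4362 ± 190 CPM in the KO 24 h group and 4019 ± 254 CPM in the WT 24 h group, against 514 ± 18.0 CPM in the KO 0 h group and 477 ± 34.3 CPM in the WT 0 h group (SD, n = 3 each). By edgeR's quasi-likelihood test with Benjamini-Hochberg (BH) adjustment over all 10981 genes tested, all 9 passed at an adjusted p below 0.05 as higher in KO 24 h than in KO 0 h, where 19.4% of the genes tested did so. All 9 likewise passed as higher in WT 24 h than in WT 0 h, against 20.2% of the genes tested. The median log2 fold change of the 9 was 2.82 in KO and 2.76 in WT cells, beside a median over all genes tested of 0.00 in both genotypes. In both genotypes the libraries of 24 h lay above those of 0 h without overlap for each of the 9 genes, as they did for 23.9% of the genes tested in KO and 24.6% in WT cells.

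**Figure D1:**
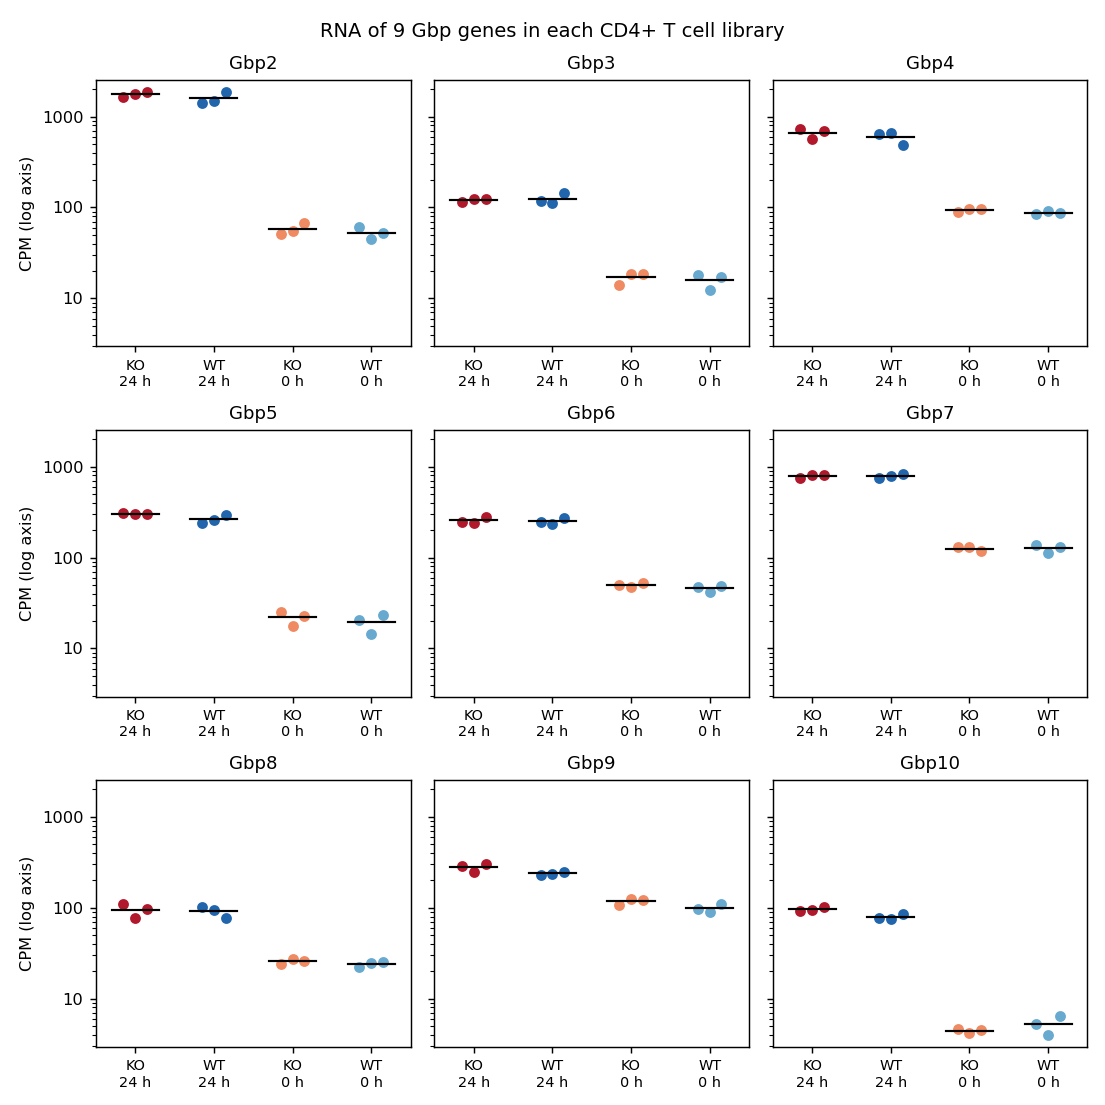
Level of each of the 9 Gbp genes in every library, in CPM on a logarithmic axis with the same range for all genes. Each point is 1 library, and the line is the mean of the 3 libraries of a group. For every gene the 6 libraries of 24 h lie above the 6 libraries of 0 h, and KO and WT libraries lie close to each other at both times.

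The chromosome 3 members include the gene with the largest change. Gbp2, which in mice is needed for full resistance to the parasite Toxoplasma gondii, had 1636, 1784 and 1866 CPM in the KO 24 h libraries, 1403, 1475 and 1869 CPM in the WT 24 h libraries, 51.1, 54.4 and 67.2 CPM in the KO 0 h libraries, and 60.5, 44.5 and 51.7 CPM in the WT 0 h libraries. Every stimulated library stood far above every library of 0 h, and within each time the KO and WT libraries overlapped. The log2 fold change of 24 h over 0 h was 4.95 in KO (SE 0.124, edgeR BH-adjusted p = 2.58e-28) and 4.93 in WT cells (SE 0.125, edgeR BH-adjusted p = 3.31e-28), or 30.8-fold in KO and 30.4-fold in WT cells. Ranked by that fold change among the 10981 genes tested, Gbp2 stood at place 47 in KO and place 40 in WT cells.

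Gbp5, a protein tied in mouse macrophages to the NLRP3 inflammasome, had 306, 302 and 299 CPM in the KO 24 h libraries, 239, 262 and 297 CPM in the WT 24 h libraries, 25.4, 17.8 and 22.6 CPM in the KO 0 h libraries, and 20.4, 14.5 and 23.3 CPM in the WT 0 h libraries. The 3 KO libraries of 24 h lay close to each other and all above the 3 WT libraries, which were more spread. Its log2 fold change over time was 3.77 in KO (SE 0.125, edgeR BH-adjusted p = 9.05e-27) and 3.77 in WT cells (SE 0.126, edgeR BH-adjusted p = 1.17e-26).

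Gbp7, which binds components of the phagocyte oxidase in mouse macrophages, had 754, 800.1 and 813 CPM in the KO 24 h libraries, 759, 784 and 834 CPM in the WT 24 h libraries, 129, 129.9 and 117 CPM in the KO 0 h libraries, and 136, 114 and 131 CPM in the WT 0 h libraries. The KO and WT values were interleaved at both times, and each group was tight. The log2 fold change was 2.65 in KO and 2.64 in WT cells. Gbp3 had 114, 125 and 125 CPM in the KO 24 h libraries, 116, 111 and 146 CPM in the WT 24 h libraries, 14.2, 18.7 and 18.5 CPM in the KO 0 h libraries, and 17.8, 12.3 and 17.3 CPM in the WT 0 h libraries. Here too the genotypes overlapped at both times, and Gbp3 rose by a log2 fold change of 2.84 in KO and 2.98 in WT cells. Gbp2b, the fifth gene of that cluster in the files and no member of the set, summed to 18 reads in KO 24 h, 12 in WT 24 h, 9 in KO 0 h and 10 in WT 0 h, and did not pass the filter.

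On chromosome 5 the changes ranged most widely. Gbp10 had 91.5, 95.2 and 103 CPM in the KO 24 h libraries, 77.2, 75.4 and 84.5 CPM in the WT 24 h libraries, 4.61, 4.2 and 4.52 CPM in the KO 0 h libraries, and 5.20, 4.02 and 6.38 CPM in the WT 0 h libraries. At 24 h every KO library stood above every WT library, while at 0 h the KO values lay inside the range of the WT values. Behind the values of 0 h were 24 to 43 reads a library in KO and 29 to 51 in WT cells. The log2 fold change was 4.43 in KO (SE 0.164, edgeR BH-adjusted p = 2.29e-26) and 3.91 in WT cells (SE 0.159, edgeR BH-adjusted p = 8.36e-25). Its near copy Gbp6 had 248, 242 and 279 CPM in the KO 24 h libraries, 246, 234 and 269.8 CPM in the WT 24 h libraries, 49.98, 47.9 and 53.1 CPM in the KO 0 h libraries, and 47.6, 41.3 and 49.2 CPM in the WT 0 h libraries. Gbp6 was thus detected well at 0 h, and its log2 fold change was 2.35 in KO and 2.44 in WT cells.

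Gbp4 had 729, 559 and 694 CPM in the KO 24 h libraries, 648, 656 and 482 CPM in the WT 24 h libraries, 88.1, 96.0 and 96.2 CPM in the KO 0 h libraries, and 85.2, 92.3 and 86.4 CPM in the WT 0 h libraries, with overlap of the genotypes at both times. It rose by a log2 fold change of 2.82 in KO and 2.76 in WT cells. Gbp8 had 109.8, 76.9 and 96.8 CPM in the KO 24 h libraries, 101, 95.1 and 77.0 CPM in the WT 24 h libraries, 24.2, 27.3 and 25.8 CPM in the KO 0 h libraries, and 22.5, 24.8 and 25.4 CPM in the WT 0 h libraries. Both genes varied more at 24 h than at 0 h, and Gbp8 rose by 1.88 in KO and 1.90 in WT cells on the log2 scale.

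Gbp9 changed least, although it passed the test in both genotypes. It had 289.8, 246 and 304 CPM in the KO 24 h libraries, 231, 237 and 247 CPM in the WT 24 h libraries, 106, 126 and 121 CPM in the KO 0 h libraries, and 96.8, 90.2 and 110.3 CPM in the WT 0 h libraries. The KO libraries tended to lie higher at both times, with 1 KO library inside the WT range each time. Its log2 fold change over time was 1.25 in KO (SE 0.0953, edgeR BH-adjusted p = 3.98e-15) and 1.27 in WT cells (SE 0.0954, edgeR BH-adjusted p = 2.69e-15), at place 535 in KO and 507 in WT cells. On the linear scale Gbp9 rose 2.38-fold in KO and 2.41-fold in WT cells.

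**Figure D2:**
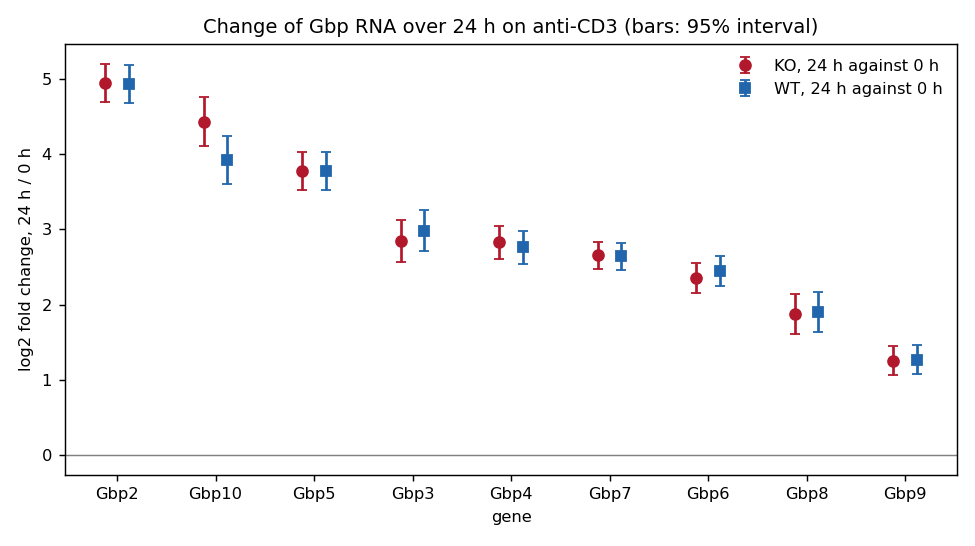
Log2 fold change of 24 h over 0 h for each Gbp gene in KO and in WT cells, with 95% confidence intervals of the edgeR fit and a line at 0. All 18 intervals lie above 0, from 1.25 for Gbp9 in KO cells to 4.95 for Gbp2 in KO cells, and the KO and WT intervals of each gene overlap.

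Because the members rose unequally, the makeup of the family's reads differed between the times. Gbp2 took 40.4% ± 1.99 of the reads of the 9 genes in KO 24 h and 39.2% ± 3.64 in WT 24 h, against 11.2% ± 1.39 in KO 0 h and 10.9% ± 1.18 in WT 0 h (SD, n = 3 each). Gbp9 went the other way, with 6.41% ± 0.523 in KO 24 h and 5.94% ± 0.174 in WT 24 h, against 22.9% ± 1.34 in KO 0 h and 20.8% ± 1.19 in WT 0 h. Gbp7 held the largest share at 0 h, 24.5% ± 2.06 in KO and 26.6% ± 0.944 in WT cells, and the second largest at 24 h, 18.1% ± 0.712 in KO and 19.7% ± 0.313 in WT cells. Gbp10 held 2.21% ± 0.0612 in KO 24 h and 1.97% ± 0.05 in WT 24 h, and about 1% of the reads at 0 h, 0.866% ± 0.0665 in KO and 1.08% ± 0.180 in WT cells. These shares describe reads counted, which also depend on gene length and on the reads that near copies lose.

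**Figure D3:**
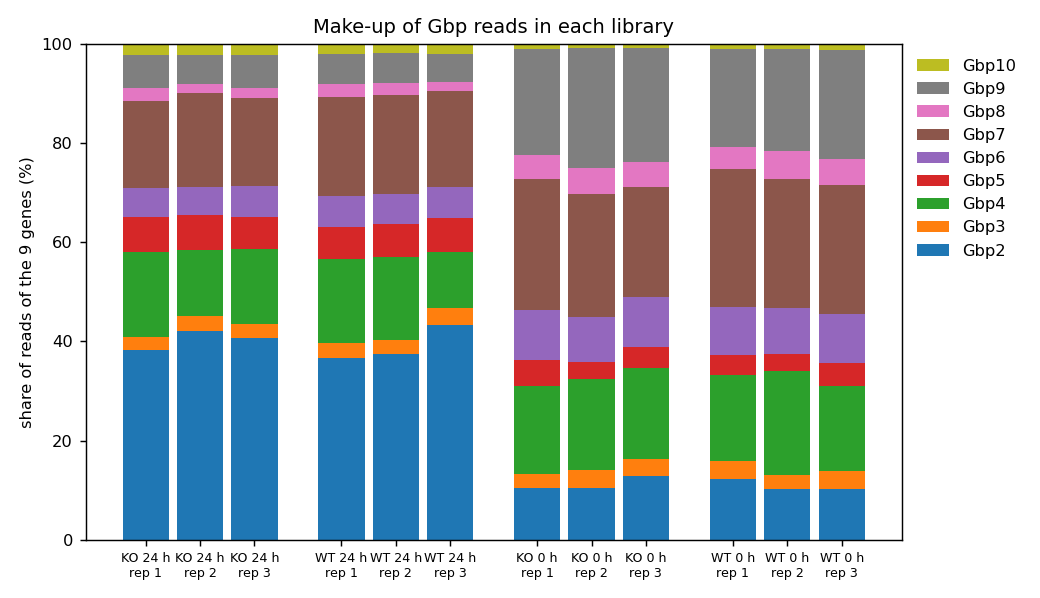
Share of each gene in the reads of the 9 Gbp genes, in percent, as a stacked bar for each library of KO 24 h, WT 24 h, KO 0 h and WT 0 h. As means of the 3 libraries of a group, Gbp2 takes 40.4% in KO 24 h, 39.2% in WT 24 h, 11.2% in KO 0 h and 10.9% in WT 0 h. Gbp9 takes 6.41% in KO 24 h, 5.94% in WT 24 h, 22.9% in KO 0 h and 20.8% in WT 0 h.

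Levels were set side by side between genes after division by transcript length, a scale that places genes with many shared bases, above all Gbp6 and Gbp10, too low. Gbp2 stood first at 24 h, at 700 ± 46.3 CPM per kilobase of transcript in KO and 629 ± 99.6 in WT cells, with no overlap between its libraries and those of any other member. Next at 24 h came Gbp4, with 146 ± 19.7 in KO and 131 ± 21.6 in WT cells, and Gbp7, with 141 ± 5.52 in KO and 141 ± 6.79 in WT cells, all in CPM per kilobase of transcript, and these neighbours did not differ beyond their spread. Gbp5, with 98.9 ± 1.05 in KO and 87.0 ± 9.45 in WT cells, and Gbp6, with 98.4 ± 7.64 in KO and 96.0 ± 7.01 in WT cells, formed the next pair on the same scale. Below them stood Gbp9 with 63.9 ± 6.94 in KO 24 h and 54.4 ± 1.86 in WT 24 h, Gbp3 with 45.2 ± 2.41 in KO and 46.4 ± 7.0 in WT cells, and Gbp8 with 38.4 ± 6.75 in KO and 37.0 ± 5.03 in WT cells. Gbp10 had the lowest value, 27.3 ± 1.58 CPM per kilobase of transcript in KO 24 h and 22.4 ± 1.37 in WT 24 h. The order changed when only the windows of 50 bases found in no other Gbp gene were counted as length, an alternative chosen after the values were seen. These windows come from the longest coding transcript, which in Gbp6 has 2604 bases, against 5954 in all its annotated exons. The scale may therefore place Gbp6 too high. Per kilobase of such windows, Gbp6 had 337 ± 26.2 CPM in the KO 24 h group and 329 ± 24.0 CPM in the WT 24 h group and moved to place 2 behind Gbp2. On that scale Gbp10 had 106 ± 6.15 CPM in the KO 24 h group and 87.0 ± 5.32 CPM in the WT 24 h group, at place 5 in KO and place 6 in WT cells.

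At 0 h no single gene led per kilobase of transcript. Gbp9 had 26.9 ± 2.41 CPM per kilobase of transcript in KO 0 h and 22.6 ± 2.33 in WT 0 h, and Gbp7 had 22.3 ± 1.33 in KO and 22.6 ± 2.11 in WT cells. Gbp2 had 22.9 ± 3.39 in KO and 20.7 ± 3.18 in WT cells, and Gbp4 had 20.6 ± 1.03 in KO and 19.4 ± 0.834 in WT cells. These 4 lay within the spread of their neighbours, and the order depended on the length used: per kilobase of coding sequence, Gbp7 came first with 65.5 ± 3.91 in KO 0 h and 66.3 ± 6.20 in WT 0 h, and Gbp2 came at place 4 with 32.6 ± 4.83 in KO 0 h and 29.5 ± 4.53 in WT 0 h. Gbp6 had 19.3 ± 0.999 CPM per kilobase of transcript in KO 0 h and 17.7 ± 1.61 in WT 0 h. Per kilobase of unshared windows, the scale that may place Gbp6 too high, it stood first. There it had 66.2 ± 3.42 CPM in the KO 0 h group and 60.6 ± 5.51 CPM in the WT 0 h group. Per kilobase of transcript there followed Gbp8 with 10.5 ± 0.617 in KO and 9.86 ± 0.619 in WT cells. Near the lower end, Gbp5, with 7.18 ± 1.27 in KO and 6.36 ± 1.46 in WT cells, and Gbp3, with 6.38 ± 0.955 in KO and 5.90 ± 1.13 in WT cells, stood close together. Gbp10 was last on all 3 scales, at 1.26 ± 0.0619 CPM per kilobase of transcript in KO 0 h and 1.47 ± 0.335 in WT 0 h.

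No Gbp gene passed the test between Sirt2-/- and wild-type cells. None of the 9 did so between KO 24 h and WT 24 h by edgeR's quasi-likelihood test, where 0.273% of the genes tested passed in either direction, and DESeq2 called none either. At an unadjusted p below 0.05 there were 2 of 9, Gbp9 and Gbp10. At least 741 of the 10981 genes tested were below that value at 24 h. The log2 difference at 24 h was 0.28 for Gbp10 (95% interval 0.04 to 0.53, edgeR BH-adjusted p = 0.608) and 0.23 for Gbp9 (95% interval 0.04 to 0.41, edgeR BH-adjusted p = 0.574). The libraries of KO 24 h lay above those of WT 24 h without overlap for Gbp10 and Gbp5, 2 of 9 members, where the libraries of 12.9% of all genes tested did not overlap in either direction. Gbp5 differed by a log2 of 0.18 (95% interval -0.02 to 0.39, edgeR BH-adjusted p = 0.778).

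The other 6 members lay closer to 0 at 24 h. The log2 difference of KO 24 h over WT 24 h was 0.15 for Gbp2 (95% interval -0.05 to 0.36), 0.15 for Gbp4 (-0.05 to 0.35), 0.06 for Gbp8 (-0.19 to 0.30), 0.03 for Gbp6 (-0.15 to 0.22), -0.01 for Gbp7 (-0.17 to 0.16) and -0.04 for Gbp3 (-0.28 to 0.19). The median of the 9 differences was 0.15, beside -0.01 over all genes tested. Each interval gives the differences that remain compatible with these 3 libraries a group, and the smallest difference the design could detect was not computed.

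At 0 h the 9 genes were again close between the genotypes. None of them passed between KO 0 h and WT 0 h by edgeR, where 0.346% of the genes tested passed, and none was called by DESeq2. Among the 9, 1, Gbp9, had an unadjusted p below 0.05, as had at least 618 of the 10981 genes tested. Gbp9 differed by a log2 of 0.24 (95% interval 0.05 to 0.44, edgeR BH-adjusted p = 0.478). Gbp10 pointed the other way than at 24 h, at -0.23 (95% interval -0.67 to 0.21), on few reads. The rest were 0.19 for Gbp5 (-0.10 to 0.47), 0.14 for Gbp2 (-0.11 to 0.38), 0.13 for Gbp6 (-0.08 to 0.34), 0.10 for Gbp3 (-0.22 to 0.41), 0.08 for Gbp4 (-0.13 to 0.30), 0.08 for Gbp8 (-0.21 to 0.36) and -0.02 for Gbp7 (-0.19 to 0.16). The libraries overlapped for all 9, while 12.4% of the genes tested had no overlap at 0 h. Of the other cell types, CD8 T cell markers summed to between 30.8 and 35.8 CPM in the KO 0 h libraries. The WT 0 h libraries held 17.3 to 18.5 CPM. Cd8b1 made up nearly all of both sums and was higher without Sirt2 (log2 0.85, edgeR BH-adjusted p = 0.0176). Cd8a had only 3 to 12 reads per KO library and 2 to 8 per WT library, with overlapping levels. It is too sparse to show whether CD8 T cells were more frequent. The B cell marker Cd22 was lower in KO 0 h (log2 -2.49, edgeR BH-adjusted p = 0.0118). What these markers contributed to the values of 0 h was not tested.

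**Figure D4:**
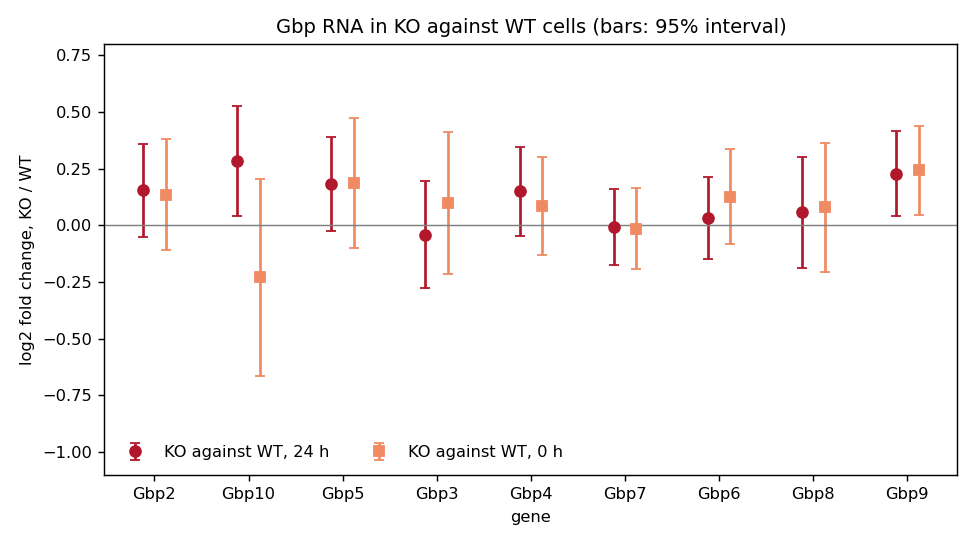
Log2 difference of KO over WT for each Gbp gene at 24 h and at 0 h, with 95% confidence intervals of the edgeR fit and a line at 0. The intervals of Gbp9 at both times and of Gbp10 at 24 h lie above 0 before adjustment over all genes, and those of the other members cross 0.

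The interaction of genotype and time asks whether the rise over 24 h differed between KO and WT cells. No member passed by edgeR, where 0.00911% of the genes tested, a single gene, did, and DESeq2 called no member. Gbp10 came nearest, with a log2 rise 0.51 larger in KO than in WT cells (SE 0.248, 95% interval 0.02 to 1.01, unadjusted p = 0.0437, edgeR BH-adjusted p = 0.932). The other 8 interaction terms ran from -0.14 for Gbp3 to 0.07 for Gbp4, each with an interval that held 0. Over all genes, 575 had an unadjusted p below 0.05 for this term.

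The pathway that switches on Gbp genes was read from lists of its parts, counted by the same fit. Of 9 interferon ligands listed, Ifng alone had enough reads to be tested, and the other 8, among them Ifnb1, had no read in any library. Ifng, the gene of interferon gamma, had 30.6, 43.2 and 35.3 CPM in the KO 24 h libraries, 12.9, 21.0 and 60.7 CPM in the WT 24 h libraries, 14.9, 14.0 and 19.6 CPM in the KO 0 h libraries, and 14.0, 16.2 and 25.7 CPM in the WT 0 h libraries. All KO libraries of 24 h lay above those of 0 h, whereas the WT libraries of 24 h spread across the whole range. The log2 fold change of 24 h over 0 h was 1.18 in KO (edgeR BH-adjusted p = 0.117, or 1.05e-06 in a fit of the compared groups alone) and 0.76 in WT cells (edgeR BH-adjusted p = 0.288). Replicate 3 of WT 24 h stood highest. Without that library the change over time in WT cells was -0.12 (edgeR BH-adjusted p = 0.731), and the log2 difference of KO 24 h over WT 24 h was 1.07 (edgeR BH-adjusted p = 0.0235), against 0.19 with it (edgeR BH-adjusted p = 0.982). That library was also the highest of WT 24 h for Gbp2, Gbp3, Gbp5, Gbp6, Gbp7, Gbp9 and Gbp10 and the lowest for Gbp4 and Gbp8. For how many of all genes tested it was the highest was not counted, and a link with Ifng was not tested.

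Of the 7 receptor chains and Janus kinases, 2 rose and 3 fell over 24 h in KO cells, and the counts were the same in WT cells. Over all genes tested, 19.4% rose and 21% fell in KO cells, and 20.2% rose and 20.5% fell in WT cells, so 2 of 7 higher is near the background. Ifngr1, the ligand-binding chain of the interferon gamma receptor, rose by a log2 of 1.88 in KO and 1.94 in WT cells, and Jak2 rose by 1.13 in KO and 1.04 in WT cells. Ifnar2, a chain of the type I interferon receptor, fell by 0.76 in KO and 0.52 in WT cells on the log2 scale. Jak1 fell by 0.57 in KO and 0.58 in WT cells, and Ifngr2, the other chain of the interferon gamma receptor, fell by 0.29 in KO and 0.36 in WT cells. All 5 transcription factors counted rose in both genotypes.

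Irf1 had 582, 535 and 526 CPM in the KO 24 h libraries, 507, 503 and 546 CPM in the WT 24 h libraries, 145, 130.1 and 133 CPM in the KO 0 h libraries, and 174, 167 and 169 CPM in the WT 0 h libraries. At 0 h every KO library stood below every WT library, with a log2 difference of -0.32 that edgeR did not call (BH-adjusted p = 0.0999) and DESeq2 did (adjusted p = 0.0177). Irf1 rose by 2.01 in KO and 1.61 in WT cells. Irf8, which pairs with Irf1 on interferon gamma targets, rose by 2.79 in KO and 2.80 in WT cells, and Stat2, of the type I response, by 2.61 in KO and 2.07 in WT cells. Irf9, of the same response, rose by 0.90 in KO and 0.85 in WT cells. In the interaction none of the 5 passed, with the lowest edgeR BH-adjusted p at 0.520 for Irf1 (log2 0.40, SE 0.116).

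**Figure D5:**
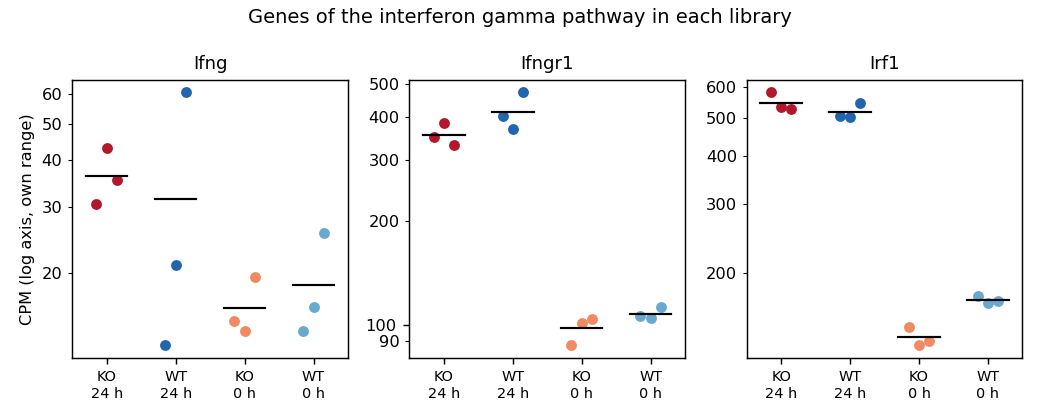
Level of Ifng, Ifngr1 and Irf1 in every library, in CPM on a logarithmic axis with its own range per gene; each point is 1 library, and the line is the group mean. Irf1 and Ifngr1 are higher in all libraries of 24 h than in those of 0 h, and replicate 3 of WT 24 h reaches 60.7 CPM of Ifng, above all other libraries.

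Inhibitors of interferon signalling rose in 3 of 5 cases in KO and 4 of 5 in WT cells. Over all genes tested, 19.4% rose and 21% fell in KO cells, and 20.2% rose and 20.5% fell in WT cells. Socs1, which blocks Janus kinases, rose by a log2 of 2.99 in KO and 2.81 in WT cells, to 306 ± 44.7 CPM in the KO 24 h group and 269 ± 35.7 CPM in the WT 24 h group, against 38.1 ± 6.80 CPM in the KO 0 h group and 38.5 ± 5.09 CPM in the WT 0 h group. Usp18, which dampens signalling at the type I receptor, rose by 0.76 in KO and 1.07 in WT cells, and Socs3, a relative of Socs1, by 0.81 in KO and 0.42 in WT cells. The phosphatase Ptpn2 passed in WT cells, at 0.37, and stood at 0.24 in KO cells. Among genes whose proteins work with Gbp proteins at vacuoles, 10 of 11 were in the files. Of these, 6 rose and 2 fell in either genotype, beside the shares over all genes just given. The risers were 5 immunity-related GTPases, led by Irgm2 at 2.95 in KO and 2.85 in WT cells, Igtp at 2.77 in KO and 2.58 in WT cells, Irgm1 at 2.76 in KO and 2.40 in WT cells, and Tgtp1 at 2.75 in KO and 2.77 in WT cells, together with Atg16l1. Gabarapl2 and Atg3, of the autophagy conjugation machinery, also passed: Gabarapl2 fell by 0.45 in KO and 0.68 in WT cells, and Atg3 fell by 0.42 in KO and 0.30 in WT cells. No gene of these lists passed between the genotypes at either time, or in the interaction.

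Genes of the inflammasome, with which Gbp5 and other members are tied in macrophages, gave few calls. Of 8 listed, 5 were tested, 1 rose and 2 fell in KO cells, and none rose and 2 fell in WT cells, counts too small to set apart from the shares over all genes given above. The adaptor Pycard fell by a log2 of 1.09 in KO and 1.51 in WT cells and the DNA sensor Aim2 fell by 0.57 in KO and 0.61 in WT cells. The caspase Casp4 rose by 0.81 in KO cells and stood at 0.61 in WT cells, while Nlrp3, the sensor named with Gbp5, summed to 1 read in KO 24 h, 13 in WT 24 h, 5 in KO 0 h and 0 in WT 0 h. Of 10 other targets of interferon gamma, 7 were tested, and 4 rose in KO and 3 in WT cells with no gene that fell. The shares over all genes tested were 19.4% higher and 21% lower in KO, and 20.2% higher and 20.5% lower in WT cells. Among these targets Cxcl10, a chemokine, rose by 1.29 in KO and 1.80 in WT cells, and Tap1, of antigen presentation, by 1.29 in KO and 1.17 in WT cells. Psmb8, a subunit of the immunoproteasome, rose by 0.39 in KO and 0.40 in WT cells, and Ciita rose in KO cells by 2.58, on 9 reads in KO 0 h.

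Among other genes of the superfamily, Gbp11 stood out. It had 104, 69.9 and 76.6 CPM in the KO 24 h libraries and 67.5, 67.4 and 47.0 CPM in the WT 24 h libraries, against 1, 5 and 4 reads in the libraries of KO 0 h and 5, 0 and 8 reads in those of WT 0 h. Its log2 fold change was 7.38 in KO (SE 0.367, edgeR BH-adjusted p = 1.17e-13) and 6.57 in WT cells (SE 0.357, edgeR BH-adjusted p = 5.66e-13), with its size uncertain on so few reads at 0 h. Of Gbp8, the member whose coding sequence is nearest to it, 93.8% of the aligned bases were identical. Atl3, an atlastin, a GTPase of the endoplasmic reticulum, stood at 0.08 in KO cells and passed in WT cells, at 0.28, and its interaction term did not pass.

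None of the 8 genes that flank the clusters passed as higher at 24 h. Of all genes tested, 19.4% did so in KO and 20.2% in WT cells, and 8 genes are too few to set apart from these shares. On chromosome 3 the nearest tested genes were Pdlim5 and Rap1gds1 before Gbp5, and Ccbl2 and Gtf2b after Gbp2. Their log2 fold changes over 24 h were -0.39, 0.00, 1.12 and -0.16 in KO, and -0.23, 0.04, 0.42 and -0.37 in WT cells. Of these, Pdlim5 passed as lower in KO and Gtf2b as lower in WT cells. Ccbl2, with no more than 40 reads in a group, did not pass (edgeR BH-adjusted p = 0.141 in KO and 0.606 in WT cells). Its libraries of 24 h lay above those of 0 h without overlap in both genotypes. That was so for 23.9% of all genes tested in KO and 24.6% in WT cells. Around the chromosome 5 cluster, Abcg3 fell by 1.22 in KO and 1.86 in WT cells and Lrrc8c fell by 0.86 in KO and 0.98 in WT cells. Zfp951, at -0.21 in KO and -0.14 in WT cells, and Lrrc8b, at 0.05 in KO and -0.32 in WT cells, did not pass. None of the 8 passed between the genotypes.

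The genes with the most similar profile were found from log2 CPM (prior count 2), centred per gene over the 12 libraries, as the root mean square difference from the mean profile of the 9 members. The 5 nearest were Irgm2 at 0.153, Wars at 0.157, Socs1 at 0.168, Tgtp1 at 0.173 and Gfod1 at 0.173. Wars encodes tryptophanyl-tRNA synthetase, an enzyme known to respond to interferon gamma. It averaged 390.2 ± 15.3 CPM in the KO 24 h group and 299 ± 7.94 CPM in the WT 24 h group, and 43.9 ± 4.24 CPM in the KO 0 h group and 43.6 ± 4.28 CPM in the WT 0 h group. Unlike the members it passed between the genotypes at 24 h, with a log2 difference of 0.38 (SE 0.0858, edgeR BH-adjusted p = 0.0256), though whether it differs from the members in this was not tested.

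Single members had other nearest genes. Iigp1, an immunity-related GTPase, was nearest to Gbp5 at 0.169 and to Gbp10 at 0.130, and Inadl was nearest to Gbp4 at 0.185 and to Gbp7 at 0.130. For Gbp2 it was Sema7a at 0.300, for Gbp3 Clic4 at 0.186, for Gbp6 N4bp1 at 0.142, for Gbp8 Parp14 at 0.136 and for Gbp9 Cacnb1 at 0.116. Gbp2 had no gene as close to it as the other members had to them, and its nearest relative in the family was Gbp10 at 0.453. Among all other genes and members ranked by closeness to Gbp9, the nearest member, Gbp8, came at place 437.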

How the data were processed

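RNA-seq read counts per gene symbol, 1 table per library, were used as deposited. The submitters' processing notes name STAR 2.6.0c, DESeq and the human build hg19, although the symbols belong to mouse genes, which leaves the build of the counts uncertain; for the counting program and its strand setting the notes give no name. Per the labels' protocols, total RNA libraries were made from 100 ng with ribosomal RNA reduced by probes. Entries that name no gene were left out: 22.8% to 35.4% of reads had no feature and 0.412% to 0.576% were ambiguous. Library depth, as reads in genes, was 3.63 to 10.0 megareads.

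Groups and replicate numbers came from the sample titles. CPM were computed here with TMM factors (edgeR 4.0.16, R 4.3.3). Genes were kept by filterByExpr (minimum count 10, minimum total 15), and 1 robust quasi-likelihood fit of the 4 groups gave the 5 comparisons, with BH adjustment over all 10981 genes tested and a threshold of 0.05; it was tested on simulated data. The biological coefficient of variation was 0.115. Fold changes are log2 estimates of that fit, with 95% intervals from its standard errors. Alternatives were DESeq2 1.42.0, RLE factors, no filter, Rn45s left out, the compared groups alone, a replicate block and each library left out in turn.

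All members were named, with up to 4 genes per list that passed with the largest changes, 2 tested neighbours on each side of a cluster, and the genes nearest in profile. The members and lists were chosen with earlier results of these data known. A listed gene is not reported here and was left out of the counts over its list. Scales other than transcript length were added after the values were seen. Lengths and identities came from GENCODE M21, gene order and upstream windows from RefSeq GRCm38.p6; of 23479 symbols, 23339 were named in the RefSeq gene table.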

Additional observations from a re-analysis of the deposited data

How the results depend on the processing

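All 9 Gbp genes passed as higher at 24 h in KO and in WT cells under each of the 12 alternatives run per comparison, and none passed between the genotypes under the 12 run at each time or in the interaction under its 17. With the replicate block the counts were again 9 of 9 over time in both genotypes and 0 of 9 between genotypes. Over 18 same-numbered pairs the deviations from group means correlated at -0.0884 to 0.0934. The labels do not say what equal numbers share, and these correlations cannot settle whether it was an animal or a day. Counts over all genes moved by more than 1.5 times under some settings. Between KO 24 h and WT 24 h, 20 were higher and 10 lower; with a library left out these were 11 to 24 and 2 to 7. Between KO 0 h and WT 0 h, 13 were higher and 25 lower; with a library left out these were 8 to 13 and 9 to 25, with no filter 20 and 39, and with the compared groups alone 12 were lower. The interaction had 0 higher and 1 lower gene, 2 higher with no filter and 0 lower with RLE factors, with Rn45s left out or with the block. Ifng over time in KO cells passed with the compared groups alone (log2 1.19, edgeR BH-adjusted p = 1.05e-06) and with the block (1.196, edgeR BH-adjusted p = 0.00769). Near 0 the sign of a log2 estimate moved: of 585 estimates for members 50 changed sign, and none that changed was called in either fit. With every library kept, Gbp7 at 24 h was 2e-04 with RLE factors and 0.0096 with the compared groups alone for KO over WT, and the interaction of Gbp5 was 0.0059 with DESeq2, 0.0049 with RLE factors, 0.0032 with no filter and 0.0027 with Rn45s left out. With a library left out, KO over WT at 24 h ran between -0.122 and 0.0907 for Gbp3, -0.0312 and 0.0926 for Gbp6, -0.0389 and 0.0312 for Gbp7, -0.0719 and 0.188 for Gbp8, and -0.158 and 1.07 for Ifng. KO over WT at 0 h ran between -0.0624 and 0.231 for Gbp3 and -0.0947 and 0.0334 for Gbp7, and Ifng over time in WT cells between -0.118 and 1.11. The interaction ran between -0.0792 and 0.155 for Gbp2, -0.262 and 0.0315 for Gbp3, -0.0658 and 0.172 for Gbp4, -0.164 and 0.187 for Gbp5, -0.0311 and 0.097 for Gbp7, -0.152 and 0.108 for Gbp8, and -0.0913 and 0.0698 for Gbp9.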
